A study of Arabidopsis thaliana with 27 samples.

Results

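Uninduced root tips of the estradiol-inducible line pG1090::XVE>>AXR3-1 were compared with root tips of its wild type, Col-0, both after 90 min of mock treatment. The members were chosen by their labels, as the 3 AXR3-1 and the 3 Col-0 libraries given DMSO, and are 6 of the 27 RNA-seq libraries of the series. The study induced auxin-signaling transgenes for 90 or 180 min and compared the root transcriptomes with those of Col-0, so the mock libraries show how far the line already differed from Col-0 when no inducer was given. Another inducible line, pG1090::XVE>>ΔMP, was treated in the same way. All plants were 5-d-old Arabidopsis thaliana seedlings. Mock plants received DMSO, the solvent, in liquid medium, and induced plants received 2.5 µM estradiol. Each library was made from 40 to 50 root tips of 7 to 10 mm.

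In both transgenic lines the G1090 promoter drives XVE, an artificial activator that enters the nucleus and switches on its target transgene when it binds estradiol. The target in the AXR3-1 line is axr3-1, a stabilised form of the Aux/IAA protein IAA17/AXR3, and in the ΔMP line a truncated form of the response factor ARF5/MP. Col-0 carries no transgene, so that the presence of XVE, the insertion site, the selected line and its seed stock cannot be told apart from one another in AXR3-1 against Col-0. Whether each line came from 1 insertion event is not given in the sources used here. The study's methods speak of biological replicates for every experiment, without saying whether the 3 libraries of a group came from separate plates or sowings. The p-values therefore measure the spread between libraries of the same group, estimated over all 27 libraries.

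Aux/IAA proteins bind auxin response factors at their target promoters and keep the targets off. Auxin brings an Aux/IAA protein together with the TIR1/AFB F-box receptors, after which the repressor is degraded. The axr3-1 change lies in the degron that the receptors recognise, so the protein persists and auxin-responsive transcription stays repressed. A leaky transgene would therefore be looked for in the transcript of IAA17 itself and in the genes that auxin normally induces, which include many Aux/IAA genes, the GH3 conjugating enzymes and several LBD genes.

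The 6 libraries held between 17698472 and 22017068 read pairs assigned to genes, and 19530 genes had enough counts to be tested. Levels are given as TPM, a unit scaled for transcript length and library depth, in the order of libraries A, B and C, and differences as log2 fold changes of AXR3-1 over Col-0 from edgeR's quasi-likelihood test on the estimated counts. A gene is said to have risen or fallen where its Benjamini-Hochberg adjusted p was at most 0.05, and is called where it also moved by 1 or more on the log2 scale. Both thresholds are those of the study's methods. The common coefficient of variation between libraries of a group was 0.0559. In the transcriptome as a whole, the number of genes at least 4 times higher in 1 mock library than in each of the other 8 was 2, 2 and 4 in AXR3-1 libraries A, B and C, against 1, 3 and 0 in the Col-0 libraries.

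The transcript of IAA17 (AT1G04250, chromosome 1, 1136078 to 1138663, + strand, TAIR10.1) did not show the transgene in the mock libraries. It stood at 152, 130 and 145 TPM in AXR3-1 mock and at 158, 163 and 157 TPM in ΔMP mock, against 161, 143 and 153 TPM in Col-0 mock. The AXR3-1 and Col-0 values overlapped, and the AXR3-1 mean was the lower one. The log2 fold change was -0.09 (95% interval -0.19 to 0.01, adjusted p = 0.46), and the reads cannot separate the transgene from the native gene, since both carry the IAA17 coding sequence. The same count read the transgene clearly once it was induced, with 1152, 1220 and 1184 TPM in AXR3-1 after 90 min of estradiol, against 145, 162 and 171 TPM in Col-0. After 180 min it reached 2439, 2583 and 2594 TPM in AXR3-1, against 148, 150 and 160 TPM in Col-0. ARF5, the target of the other line, was as even in the mock, with 10.0, 9.0 and 10.4 TPM in AXR3-1 and 9.5, 9.6 and 10.0 TPM in Col-0 (log2 fold change 0.01, interval -0.12 to 0.14).

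Few genes differed strongly between the uninduced line and Col-0. Of the genes tested, 17 were called (0.087%), of which 8 had risen (0.041%) and 9 had fallen (0.0461%) in AXR3-1. Without a minimum fold, 400 genes passed (2.05%), of which 101 rose (0.517%) and 299 fell (1.53%), and under scaling by library totals in place of TMM the same threshold gave 129 and 193. The median log2 fold change over all genes tested was 0.0029, or 0.0297 under library totals. A share of 55.31% of the genes lay within 0.1 of 0, and for 92.99% the 95% interval lay within 1 of 0 on the log2 scale. In simulated counts of this comparison 19366 genes were tested. By the adjusted p alone, the test recovered 94% of the genes changed by 2-fold and 99% of those changed by 4-fold. At that threshold, with no minimum fold, 9 unchanged genes also passed. The changed genes were not drawn from those with the lowest counts, so these shares do not cover the called genes with few counts. The call count rested partly on single libraries. The number that rose was 2 without AXR3-1 library C or Col-0 library A, 3 without Col-0 C, 4 without Col-0 B, 5 without AXR3-1 B and 12 without AXR3-1 A, whereas the number that fell stayed between 6 and 13.

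Among the called genes, 3 stood out by their level and their evenness between libraries, namely AT5G35940 and EID1, which fell, and AT5G26270, which rose. AT5G35940 encodes a mannose-binding lectin superfamily protein and lies on chromosome 5 (14090574 to 14093007, + strand). Its transcript stood at 39.0, 35.2 and 37.1 TPM in AXR3-1 mock, against 125, 119 and 121 TPM in Col-0 mock. Every AXR3-1 library was far below every Col-0 library, with little spread inside either line. The log2 fold change was -1.70 (SE 0.06, adjusted p = 1.98e-20). The difference was also measured in libraries that the mock comparison does not use, with 41.2, 42.3 and 39.8 TPM in AXR3-1 after 90 min of estradiol, against 120, 124 and 123 TPM in Col-0. After 180 min the values were 35.2, 34.0 and 35.3 TPM in AXR3-1 and 105, 97.6 and 97.7 TPM in Col-0. The log2 fold changes at these times, -1.58 and -1.52, were close to that of the mock, and the groups did not overlap at either time. In ΔMP mock the gene stood at 101, 93.2 and 91.1 TPM, between the other lines but nearer to Col-0. It was lower there than in Col-0 mock (log2 fold change -0.36, edgeR adjusted p = 2.49e-05), a comparison that shares the Col-0 libraries.

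EID1 (AT4G02440, chromosome 4, 1072376 to 1073779, + strand) encodes an F-box protein that acts in phytochrome A signaling. It was found at 9.01, 8.32 and 9.03 TPM in AXR3-1 mock, against 19.5, 17.0 and 18.4 TPM in Col-0 mock. The lines were again fully apart, with AXR3-1 the lower one (log2 fold change -1.04, SE 0.08, adjusted p = 3.89e-10). The 90 min libraries gave 7.92, 7.56 and 8.35 TPM in AXR3-1, against 16.3, 16.6 and 18.0 TPM in Col-0, and the 180 min libraries 7.54, 7.49 and 7.88 TPM in AXR3-1, against 18.4, 21.0 and 19.2 TPM in Col-0. The corresponding log2 fold changes were -1.07 and -1.32. The ΔMP mock libraries, at 20.2, 18.8 and 19.2 TPM, lay with Col-0 (log2 fold change of ΔMP over Col-0 0.07, a comparison that shares the Col-0 libraries).

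AT5G26270, an uncharacterised protein gene on chromosome 5 (9206375 to 9208136, + strand), was the clearest rise. It had 57.4, 75.8 and 78.0 TPM in AXR3-1 mock, against 20.0, 20.2 and 23.3 TPM in Col-0 mock, and the lines did not overlap (log2 fold change 1.63, SE 0.13, adjusted p = 6.26e-10). After 90 min of estradiol it had 58.3, 56.1 and 52.3 TPM in AXR3-1 and 23.5, 18.5 and 21.1 TPM in Col-0 (log2 fold change 1.53). After 180 min it had 68.9, 82.3 and 52.3 TPM in AXR3-1 and 22.0, 27.4 and 17.0 TPM in Col-0 (log2 fold change 1.77). The gene was higher still in ΔMP mock, at 267, 279 and 276 TPM, which is 3.67 above Col-0 on the log2 scale. Thus the 3 lines had 3 separate levels of this transcript, with Col-0 the lowest.

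**Figure D1:**
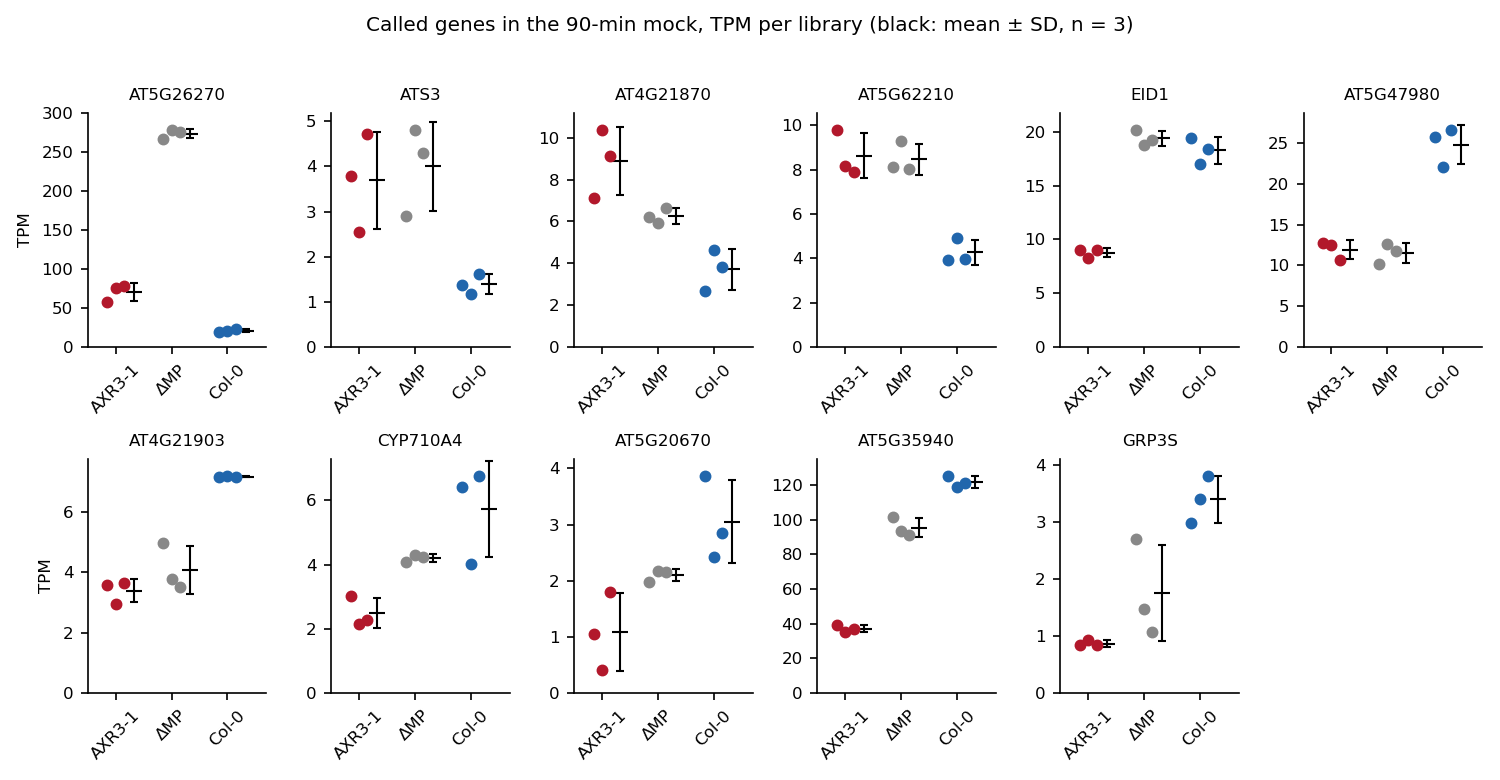
TPM of the 11 called genes that averaged 2 TPM or more in the higher line and did not overlap between the lines, 1 panel per gene, in each mock library of AXR3-1, ΔMP and Col-0. Coloured points are libraries, and the black mark and bar give the mean ± SD (n = 3). AT5G35940 and EID1 are low in AXR3-1. In ΔMP, EID1 lies with Col-0, and AT5G35940 lies between the other lines but nearer to Col-0. AT5G47980 is low in both transgenic lines and AT5G26270 is highest in ΔMP.

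The neighbours of these genes on the chromosome moved little. Among the 10 nearest tested genes of each, none past the adjusted p lay near AT5G35940, and 1 each lay near AT5G26270 and EID1. The one beside AT5G26270 is AT5G26280, a TRAF-like family gene, which fell with a log2 fold change of -0.37. No neighbour changed by 1 or more on the log2 scale. Of the 17 called genes, AT5G35940 and AT5G26270 alone kept their call under each of the 17 alternative settings and left-out libraries tried for this comparison, and EID1 missed the fold threshold in 1, limma's test on log2(TPM + 1). For EID1 the adjusted p over these alternatives ranged from 8.91e-22 to 7.13e-06.

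The other called genes that rose and passed the level rule were lowly expressed. ATS3 (AT5G07190), named as a seed gene, had 3.79, 2.56 and 4.71 TPM in AXR3-1 and 1.37, 1.18 and 1.62 TPM in Col-0. AT5G62210, of the embryo-specific protein 3 family, had 9.79, 8.16 and 7.92 TPM in AXR3-1 and 3.93, 4.92 and 3.99 TPM in Col-0. Neither gene overlapped between the lines, and both were also high in ΔMP mock, with 2.9 to 4.8 TPM for ATS3 and 8.04 to 9.29 TPM for AT5G62210. The log2 fold changes were 1.53 (SE 0.29, adjusted p = 0.0028) and 1.02 (SE 0.18, adjusted p = 0.000934). AT4G21870, a HSP20-like chaperone gene, had 7.13, 10.4 and 9.14 TPM in AXR3-1 and 2.69, 4.63 and 3.81 TPM in Col-0 (log2 fold change 1.14, SE 0.30, adjusted p = 0.036). The lines were apart for this gene as well, but its adjusted p rose above the threshold, to at most 0.169, when AXR3-1 B or C or any 1 Col-0 library was left out. ATS3 was lost without AXR3-1 C (adjusted p = 0.0512). AT5G62210 kept its adjusted p but went below the fold threshold, to 0.94, when AXR3-1 A, Col-0 A or Col-0 C was left out.

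Among the called genes that fell, 2 belong to enzyme families of lipid and terpenoid metabolism. CYP710A4 is a member of the cytochrome P450 family that makes the C22-desaturated sterol stigmasterol, and it had 3.02, 2.15 and 2.28 TPM in AXR3-1 and 6.40, 4.00 and 6.76 TPM in Col-0. AT5G47980, a BAHD acyltransferase gene of the thalianol cluster (chromosome 5, 19428888 to 19430517, + strand), had 12.7, 12.5 and 10.6 TPM in AXR3-1 and 25.7, 22.0 and 26.6 TPM in Col-0. Both were lower in each AXR3-1 library than in any Col-0 library. The log2 fold changes were -1.19 (SE 0.19, adjusted p = 0.000379) and -1.05 (SE 0.14, adjusted p = 4.5e-05). For CYP710A4, 33.06% of the 31-base words of its coding sequence also occur in other genes, so its estimated counts are partly shared with near copies. AT5G47980 missed the fold threshold without AXR3-1 C or Col-0 C (down to -0.98) and kept its adjusted p.

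AT4G21903, encoding a MATE efflux family transporter, had 3.59, 2.94 and 3.63 TPM in AXR3-1 and 7.16, 7.18 and 7.15 TPM in Col-0 (log2 fold change -1.09, SE 0.13, adjusted p = 1.57e-05). GRP3S (AT2G05380), a short glycine-rich protein gene, had 0.833, 0.93 and 0.837 TPM in AXR3-1 and 2.98, 3.39 and 3.80 TPM in Col-0 (log2 fold change -1.98, SE 0.47, adjusted p = 0.0183). AT5G20670, a gene with a domain of unknown function, had 1.06, 0.414 and 1.8 TPM in AXR3-1 and 3.87, 2.42 and 2.86 TPM in Col-0 (log2 fold change -1.44, SE 0.35, adjusted p = 0.0203). All 3 were separated between the lines, although GRP3S and AT5G20670 were near the limit of detection in AXR3-1, and AT4G21903 stood at -0.998 without AXR3-1 B. GRP3S and AT5G20670 each lost the adjusted p under 4 of the alternatives, GRP3S without AXR3-1 A or C or Col-0 B or C (at most 0.108) and AT5G20670 without AXR3-1 A or B or Col-0 A and in the fit of 6 libraries (at most 0.131).

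The remaining 6 called genes did not meet the level or overlap rule and are named because they complete the count. AT1G52820, CRK4, AT3G50610 and AT5G38820 stayed under 3 TPM in every mock library of the lines, with log2 fold changes of 1.98, 1.67, -1.74 and -1.003. The first 3 each lost the adjusted p when any of 3 to 5 single libraries was left out, Col-0 B in every case (at most 0.163), and AT5G38820 did so under 12 of the 17 alternatives. CYP71A12, a camalexin pathway P450, and CBP60G, a calmodulin-binding activator of salicylic acid synthesis, rested on 1 library. CYP71A12 had 3, 1 and 139 counts in AXR3-1 mock A, B and C, against 2, 0 and 1 counts in Col-0 mock, and CBP60G had 0.047, 0.157 and 3.42 TPM in AXR3-1, against 0.177, 0.0769 and 0.0742 TPM in Col-0. In both cases AXR3-1 A and B lay among or near the Col-0 values and only C was high. Without AXR3-1 C the log2 fold change of CBP60G was -0.10 (adjusted p = 0.98) and that of CYP71A12 was 0.82 (adjusted p = 0.89). In the estradiol libraries, where the transgene is induced, CYP71A12 had 0 counts in each AXR3-1 and Col-0 library at 90 min. At 180 min it had 30, 26 and 31 counts in AXR3-1, against 1, 0 and 0 in Col-0.

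The estradiol libraries of the same lines allow each called gene to be looked at again in samples that the mock comparison did not use, although there the transgene is induced, so a value holds line and induction together. Of the 17 called genes, 4 passed the adjusted p in the same direction at 90 min and none in the opposite one, while 4.38% of all genes tested passed at that time in either direction. At 180 min 7 passed in the same direction and 3 in the opposite one, where 14.5% of all genes passed. The 3 that passed in the same direction at both times were AT5G35940, EID1 and AT5G26270. The 3 mock falls that were rises at 180 min were AT5G20670, with a log2 fold change of 1.16 (adjusted p = 0.00678), AT5G47980 with 0.89 and AT5G38820 with 0.84. ATS3 had values of 0.42 and 0.31 at 90 and 180 min, AT5G62210 of 0.36 and 0.81, and AT4G21870 of 0.14 and -0.81.

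**Figure D2:**
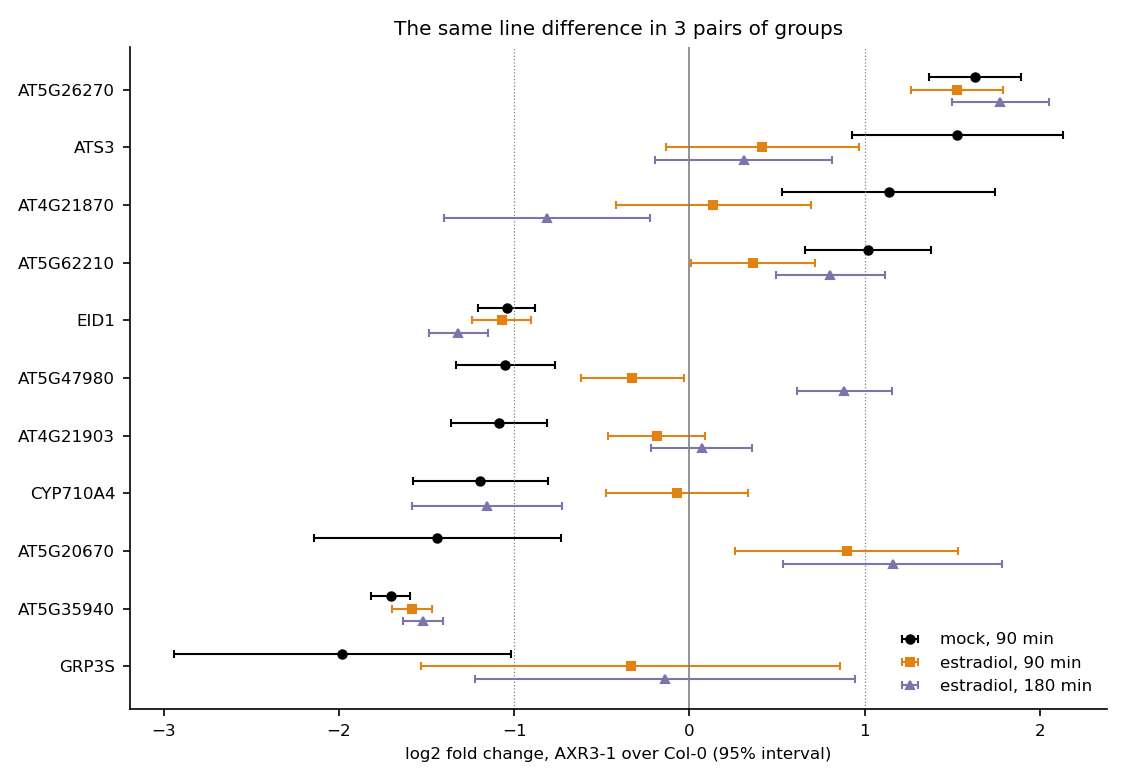
Log2 fold change of AXR3-1 over Col-0 for the 11 genes in mock libraries and after 90 and 180 min of estradiol, with the 95% interval of the edgeR fit as a bar and dotted lines at 1 and -1. AT5G26270, AT5G35940 and EID1 keep their direction and lie beyond a dotted line in all 3 pairs, whereas AT5G20670 changes sign and AT4G21903 is at -1.09 in the mock and 0.07 at 180 min.

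In the lists of the auxin pathway, which the transgene would act on, at most 1 gene each passed between the uninduced lines. Of all genes tested, 0.517% rose and 1.53% fell, and the lists were not tested as sets. Of 27 tested Aux/IAA repressor genes 1 fell and none rose, with a median log2 fold change of -0.04 beside 0.0029 over all genes tested, and for 23 of them the 95% interval lay within 1 of 0. The one that fell was IAA28, a repressor of lateral root initiation, with 215, 199 and 192 TPM in AXR3-1 and 261, 215 and 249 TPM in Col-0. The highest AXR3-1 library was just below the lowest Col-0 library (log2 fold change -0.19, adjusted p = 0.0498), and the call was lost under 12 of the 17 alternatives. Among the 8 enzymes of auxin conjugation and oxidation 1 fell and none rose. This was GH3.17, which joins auxin to glutamate, with 60.8, 67.7 and 67.1 TPM in AXR3-1 and 79.5, 78.1 and 75.0 TPM in Col-0 (log2 fold change -0.24, adjusted p = 0.0151). Every AXR3-1 library was below every Col-0 library, and the fall was lost without AXR3-1 A or Col-0 A (adjusted p at most 0.0984). All 8 enzymes had a negative log2 fold change (median -0.18), and their summed level was 120 to 134 TPM in AXR3-1, 119 to 128 TPM in ΔMP and 145 to 153 TPM in Col-0. In addition, GH3.17 was lower in the estradiol libraries too, by -0.32 at 90 min and -0.37 at 180 min. It was also lower in ΔMP mock than in Col-0 mock (log2 fold change -0.28), a comparison that shares the Col-0 libraries.

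By edgeR, no gene passed the adjusted p among 9 tested auxin synthesis genes (median -0.10), 16 of auxin transport (median -0.05) and 21 receptors and response factors (median -0.05). Of the transport genes 14 of 16 had a negative value, and 5 of these did not overlap between the lines. Over all 19530 genes tested, 9567 were negative and 9955 positive, and 10.3% did not overlap with AXR3-1 the lower line. Their summed level was 675 to 691 TPM in AXR3-1, 710 to 735 TPM in ΔMP and 719 to 739 TPM in Col-0. At an unadjusted p under 0.05 there were 2, 5 and 2 genes in the 3 lists, and DESeq2 passed 2 of the transport genes, both lower in AXR3-1, and none of the other lists. Of 12 tested LBD genes and MP targets 1 rose, TMO7 (AT1G74500), a small bHLH protein that moves into the founder cell of the embryonic root. It stood at 132, 124 and 131 TPM in AXR3-1, against 97.1, 102 and 104 TPM in Col-0, with no overlap (log2 fold change 0.44), and the rise was lost without AXR3-1 B, AXR3-1 C or Col-0 A (adjusted p at most 0.143). The median of this list was -0.08.

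Gibberellin is the hormone whose inactivating enzymes, the GA 2-oxidases, the study followed, and their transcripts showed no difference that passed the test in the mock. None of the 5 tested GA2OX genes passed in edgeR or DESeq2 (median 0.06), and 1 had an unadjusted p under 0.05. That one was GA2OX6, with 20.9, 20.6 and 20.6 TPM in AXR3-1 and 24.2, 25.0 and 23.9 TPM in Col-0. The groups were narrow and apart, but the adjusted p was 0.10 (log2 fold change -0.24). GA2OX8, which acts on C20 gibberellins, had 0.543, 0.773 and 0.341 TPM in AXR3-1 and 0.399, 0.251 and 0.349 TPM in Col-0, which overlap (log2 fold change 0.74, adjusted p = 0.395). Of 10 GA synthesis genes 1 fell (median 0.05). This was GA3OX2, the 3-oxidase that makes bioactive gibberellin, with 8.61, 11.2 and 8.64 TPM in AXR3-1 and 12.1, 14.6 and 12.3 TPM in Col-0 (log2 fold change -0.49, adjusted p = 0.041). It was lower in the estradiol libraries as well, by -0.46 and -0.64. GA3OX2 was also lower in ΔMP mock than in Col-0 mock (log2 fold change -0.55, edgeR adjusted p = 0.0086), a comparison that shares the Col-0 libraries. Leaving out AXR3-1 A or C or Col-0 B or C took the adjusted p of GA3OX2 above the threshold, to at most 0.233. None of 12 GA signaling genes passed, in edgeR or DESeq2 or at an unadjusted p under 0.05 (median -0.05).

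**Figure D3:**
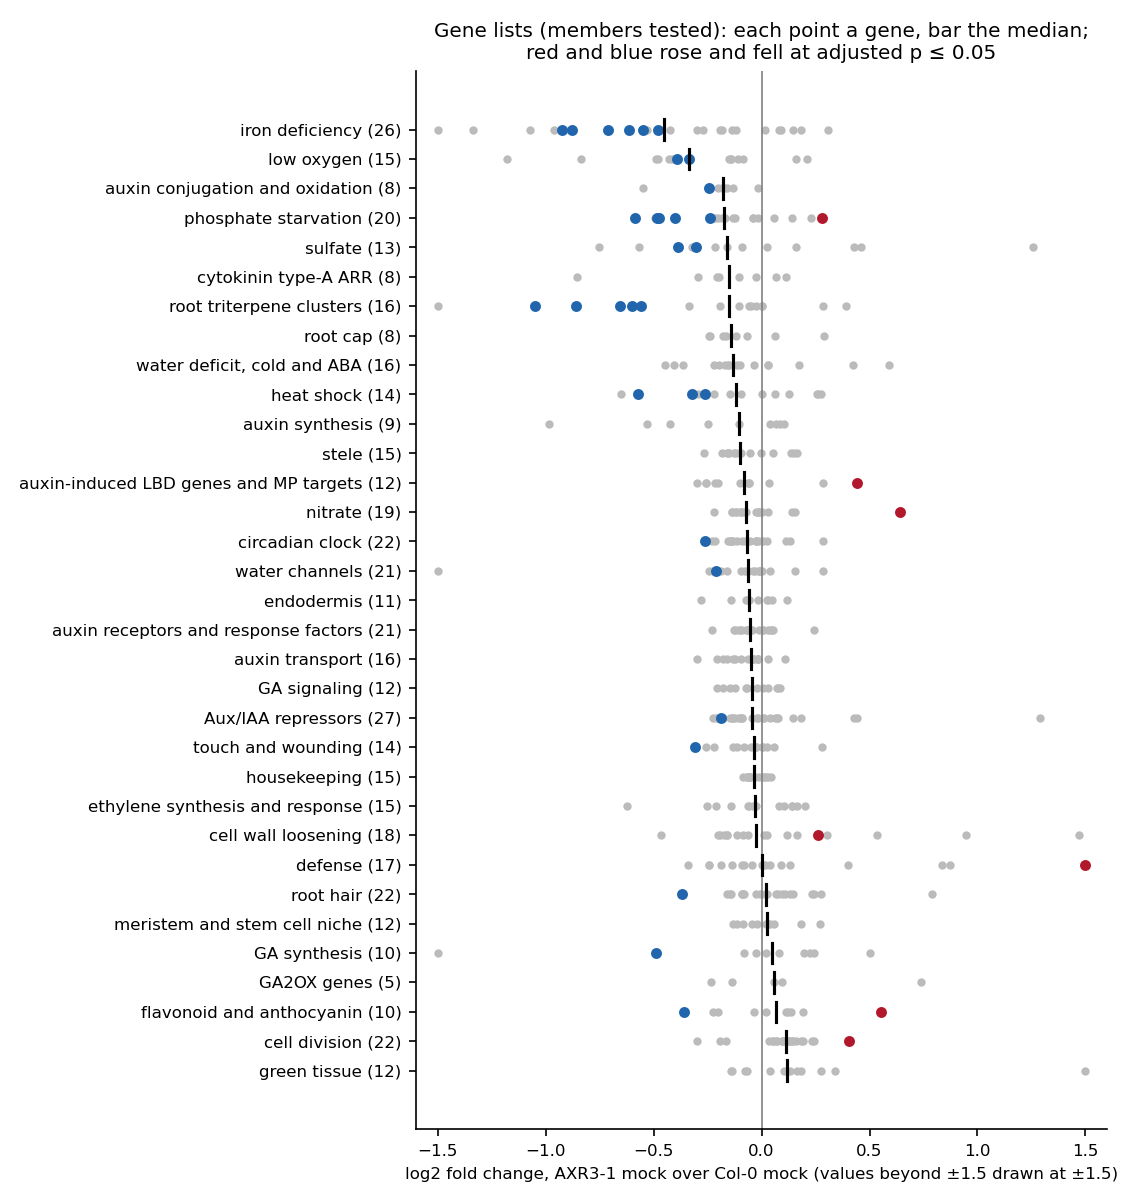
Log2 fold change of AXR3-1 mock over Col-0 mock for every tested member of the 33 gene lists, 1 row per list, with a bar at the list's median. Red points rose and blue points fell at an adjusted p of at most 0.05, grey points did not pass, and values beyond 1.5 in size are drawn at 1.5. Blue points gather in the iron, phosphate and triterpene rows. The auxin and gibberellin rows are almost wholly grey, where 2.05% of all genes tested passed.

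Over all 33 lists, 500 distinct genes were tested, of which 7 rose and 31 fell, where 0.517% of all genes tested rose and 1.53% fell, and in 14 lists none passed. By number, the falls were most in the lists of iron deficiency (6), root triterpene clusters (5) and phosphate starvation (5). As shares of the members tested these were 23.1%, 31.25% and 25.0%, and the heat shock list was close to them with 21.4%. In the bulk tissue, fewer cells that express a gene and less of its RNA in each cell cannot be told apart.

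Several iron deficiency genes fell in AXR3-1, and most of the list did not pass the test. Roots short of iron switch on a set of bHLH factors of subgroup Ib, which act with FIT to raise the ferric reductase FRO2 and the iron transporter IRT1, while nicotianamine synthases and OPT3 serve iron transport within the plant. Of 26 tested genes of this list 6 fell and none rose, with a median log2 fold change of -0.45. A negative value was found for 20 and a positive one for 6, none of which passed. In 14 of them each AXR3-1 library was below each Col-0 library, as in 10.3% of all genes tested (7.58% for the opposite order). The summed level of the list was 818 to 821 TPM in AXR3-1, 828 to 964 TPM in ΔMP and 966 to 1080 TPM in Col-0.

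Of the regulators, bHLH39, bHLH38 and PYE passed. bHLH39 (AT3G56980) had 32.4, 26.6 and 28.6 TPM in AXR3-1 and 49.5, 59.7 and 55.5 TPM in Col-0, and bHLH38 (AT3G56970) had 14.3, 10.1 and 18.5 TPM in AXR3-1 and 23.6, 34.4 and 25.8 TPM in Col-0. Both were fully separated, with log2 fold changes of -0.88 (SE 0.11, adjusted p = 1.96e-05) and -0.92 (SE 0.19, adjusted p = 0.00408). PYE, another bHLH regulator of the response, had 14.5, 12.8 and 12.5 TPM in AXR3-1 and 18.1, 20.3 and 18.1 TPM in Col-0 (log2 fold change -0.48, adjusted p = 0.0178). FIT itself stood at 114, 97.2 and 95.5 TPM in AXR3-1 and 125, 128 and 122 TPM in Col-0 and did not pass (log2 fold change -0.27, adjusted p = 0.0526), and neither did the Ib factor genes BHLH100 and BHLH101 (-1.34 and -0.53, adjusted p = 0.109 and 0.263).

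Of the transport genes, OPT3, MTPA2 and NAS1 passed. OPT3, a phloem iron transporter, had 21.7, 22.4 and 25.8 TPM in AXR3-1 and 35.9, 37.2 and 32.6 TPM in Col-0 (log2 fold change -0.61, adjusted p = 0.00321). MTPA2, a vacuolar zinc transporter, had 17.9, 18.8 and 18.1 TPM in AXR3-1 and 26.4, 34.6 and 29.5 TPM in Col-0 (log2 fold change -0.71, adjusted p = 0.000435), and NAS1, a nicotianamine synthase, 57.6, 85.8 and 66.7 TPM in AXR3-1 and 99.9, 115 and 91.2 TPM in Col-0 (log2 fold change -0.55, adjusted p = 0.0435). None of these overlapped between the lines. IRT1 and FRO2 had larger differences but a wider spread. IRT1 was at 49.9, 44.9 and 48.1 TPM in AXR3-1 and 66.9, 122 and 82.8 TPM in Col-0 (log2 fold change -0.92, adjusted p = 0.0784), and FRO2 at 6.74, 8.64 and 7.33 TPM in AXR3-1 and 11.5, 18.6 and 13.7 TPM in Col-0 (log2 fold change -0.96, adjusted p = 0.073). Col-0 B was the highest library for both. The ferritins FER1, FER3 and FER4, which store iron, had 0.18, 0.08 and 0.31 and did not pass.

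Leaving out Col-0 B, the highest library for several of these genes, reduced the falls to 3 and the median of the list to -0.26, with bHLH38 among those lost (adjusted p = 0.0589). The falls numbered 4 without AXR3-1 C, 7 without Col-0 A and 10 in a fit of the 6 libraries alone. The list was also lower in ΔMP mock against Col-0 mock, which shares the Col-0 libraries, with 9 falls and 4 rises (1.98% and 1.84% of all genes, 3.82% in all) and a median of -0.37. There bHLH38 had 10.9, 7.92 and 10.0 TPM in ΔMP and bHLH39 had 27, 21.0 and 21.9 TPM. In the estradiol libraries, which share none, 6 of the list fell and none rose at 90 min (median -0.31, beside 2.64% and 1.74% of all genes), with IRT1 at -1.79 (adjusted p = 0.000276), while at 180 min 5 rose and 1 fell (median 0.13, beside 8.15% and 6.36%) and bHLH38 and bHLH39 had 0.52 and 0.39.

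**Figure D4:**
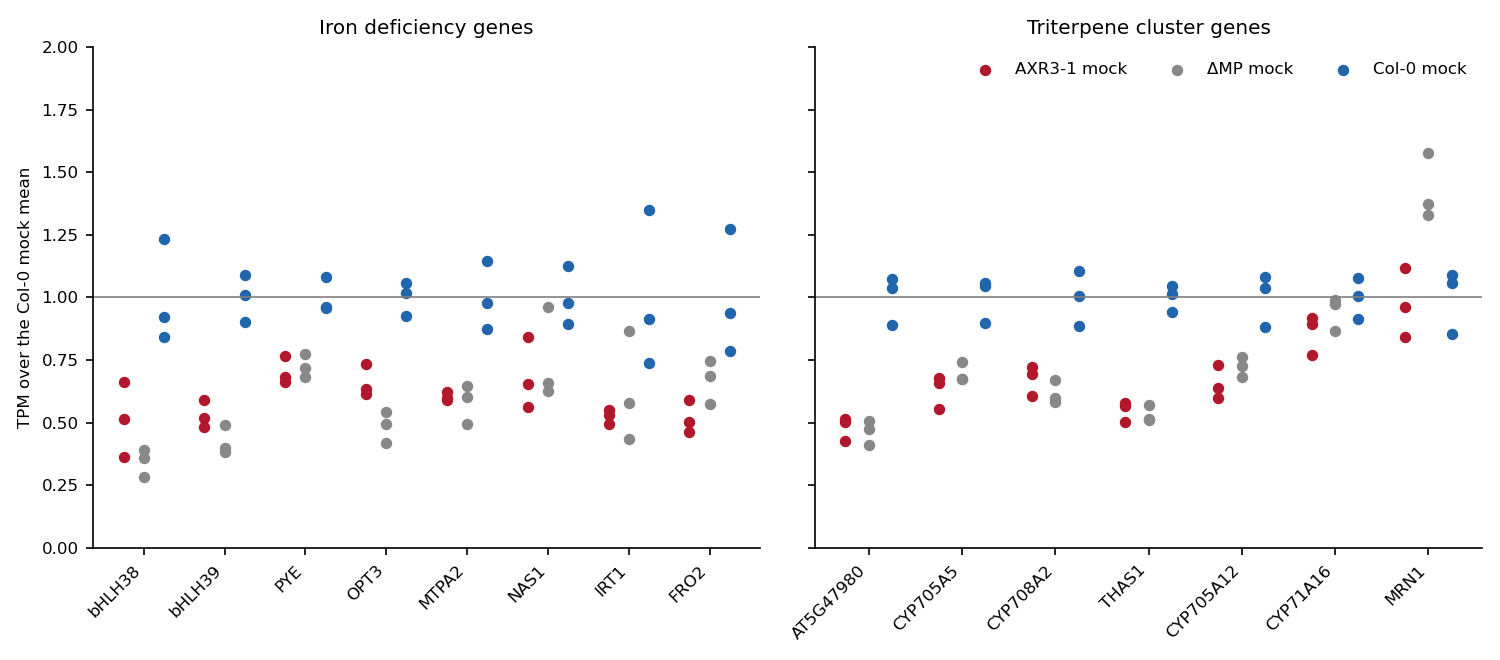
TPM of 8 iron deficiency genes and 7 genes of the root triterpene clusters in each mock library, divided by the mean of the Col-0 mock libraries. Red points are AXR3-1, grey points ΔMP and blue points Col-0. bHLH38, bHLH39, AT5G47980 and THAS1 are below Col-0 in every AXR3-1 and ΔMP library, while MRN1 overlaps between AXR3-1 and Col-0 and is higher in ΔMP.

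The genes of the thalianol cluster on chromosome 5 fell together. Thalianol is a root triterpene built by the oxidosqualene cyclase THAS1 and modified by neighbouring P450 enzymes and acyltransferases, and the related marneral cluster lies elsewhere on the same chromosome. Of 16 tested genes of these root triterpene clusters 5 fell and none rose (median -0.15). THAS1 (19456837 to 19461706, + strand) had 67.9, 66.4 and 58.9 TPM in AXR3-1, against 123, 110 and 119 TPM in Col-0 (log2 fold change -0.86, SE 0.13, adjusted p = 0.000151). CYP705A5, which desaturates hydroxylated thalianol (19434758 to 19436749, + strand), had 157, 152 and 129 TPM in AXR3-1 and 242, 208 and 245 TPM in Col-0 (log2 fold change -0.66, adjusted p = 0.000253). The thalianol hydroxylase CYP708A2 (19444103 to 19447866, - strand) had 74.6, 71.7 and 62.4 TPM in AXR3-1 and 104, 91.2 and 114 TPM in Col-0 (log2 fold change -0.56, adjusted p = 0.00329). With AT5G47980, described above, these make a row of 4 adjacent genes in which no AXR3-1 library overlapped a Col-0 library.

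Of the marneral cluster, CYP705A12 fell, with 12.0, 10.5 and 9.85 TPM in AXR3-1 and 17.0, 14.5 and 17.7 TPM in Col-0 (log2 fold change -0.60, adjusted p = 0.000575). The synthase MRN1 (-0.05) and CYP71A16 (-0.19) did not pass. The summed level of the list was 388 to 454 TPM in AXR3-1, 427 to 467 TPM in ΔMP and 572 to 677 TPM in Col-0, and the falls numbered 4 to 6 with any 1 mock library left out, CYP708A2 being lost without AXR3-1 C (adjusted p = 0.0523). In ΔMP mock THAS1 was also low, at 59.8, 67.0 and 60.3 TPM. The difference was absent at 90 min of estradiol, where THAS1 had 69.9, 69.9 and 88.6 TPM in AXR3-1 and 68.1, 89.3 and 70.2 TPM in Col-0 (log2 fold change 0.01). At 180 min it was turned round, with 153, 153 and 146 TPM in AXR3-1 and 98.6, 111 and 103 TPM in Col-0 (log2 fold change 0.57, adjusted p = 0.00106).

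The phosphate starvation list held the same number of falls as the triterpene list. Of 20 tested genes 5 fell and 1 rose (median -0.18). The summed level was 745 to 822 TPM in AXR3-1, 800 to 826 TPM in ΔMP and 897 to 1010 TPM in Col-0. In the estradiol libraries the median of the list was -0.05 at 90 min and -0.02 at 180 min. The phosphate transporter PHT1;1 had 457, 430 and 398 TPM in AXR3-1 and 597, 515 and 577 TPM in Col-0 (log2 fold change -0.40, adjusted p = 0.00122). PHT1;4, a second transporter of this family, had 40.5, 37.6 and 37.5 TPM in AXR3-1 and 58.4, 46.7 and 55.2 TPM in Col-0 (log2 fold change -0.48, adjusted p = 0.0016). The sensor SPX1 had 12.9, 11.0 and 12.2 TPM in AXR3-1 and 19.4, 17.0 and 16.2 TPM in Col-0 (log2 fold change -0.49). All 3 were separated. The acid phosphatase PAP17 and the transporter trafficking factor PHF1 fell with -0.59 and -0.24, and PHO1;H1, a phosphate exporter homolog, rose, with 15.7, 16.3 and 14.9 TPM in AXR3-1 and 12.9, 13.0 and 12.8 TPM in Col-0 (log2 fold change 0.28). The falls numbered 2 without AXR3-1 C or Col-0 A, 3 without Col-0 B and 5 without AXR3-1 A, the rise of PHO1;H1 was lost with any 1 library left out, and PHT1;4 was higher in AXR3-1 in the estradiol libraries (0.30 at 90 min and 0.64 at 180 min).

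Other nutrient lists held 1 or 2 changes each. Of 19 nitrate genes 1 rose (median -0.07), BT2, a BTB/TAZ protein induced by nitrate, with 58.0, 78.4 and 88.0 TPM in AXR3-1 and 43.6, 44.5 and 55.8 TPM in Col-0 (log2 fold change 0.64). The lines did not overlap, but the rise was lost without AXR3-1 C (adjusted p = 0.0843). Of 13 sulfate genes 2 fell (median -0.16), both sulfate-reducing APS reductases. APR3 had 120, 127 and 119 TPM in AXR3-1 and 166, 170 and 143 TPM in Col-0 (log2 fold change -0.39), and APR2 had a log2 fold change of -0.30. The number of sulfate genes that fell was 0 without Col-0 B and 4 without Col-0 C.

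Among the stress lists, at most 3 genes each passed. Of 15 low oxygen genes tested, 13 had a negative log2 fold change (median -0.34), but 2 fell, and none did without AXR3-1 C (adjusted p of 0.0919 and 0.132). These were PDC1 (AT4G33070), a pyruvate decarboxylase of fermentation, with 14.8, 14.8 and 13.4 TPM in AXR3-1 and 19.2, 18.6 and 18.5 TPM in Col-0 (log2 fold change -0.39), and the NADPH oxidase RBOHD, with 10.4, 11.1 and 9.98 TPM in AXR3-1 and 12.9, 13.7 and 12.9 TPM in Col-0 (log2 fold change -0.34). The groups were apart for both. Of 14 heat shock genes 3 fell (median -0.12), HSP70, HSP101 and HSP90.1, with log2 fold changes of -0.57, -0.32 and -0.26. HSP70 had 17.5, 19.9 and 16.3 TPM in AXR3-1, 55.6, 53.5 and 63.1 TPM in ΔMP and 26.0, 29.8 and 24.0 TPM in Col-0 (adjusted p = 0.000715), so the transgenic lines lay on opposite sides of Col-0. The falls of this list numbered 1 without AXR3-1 A, AXR3-1 C or Col-0 B. JAZ1, a repressor of jasmonate responses, was the 1 of 14 touch and wounding genes that fell (median -0.04), with 62.0, 56.5 and 55.7 TPM in AXR3-1 and 75.0, 75.6 and 70.8 TPM in Col-0 (log2 fold change -0.31), and it was lost without AXR3-1 C (adjusted p = 0.063).

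In the flavonoid list 1 of 10 genes rose and 1 fell (median 0.07). TT7, the flavonoid 3'-hydroxylase, had 12.8, 10.8 and 12.5 TPM in AXR3-1, 17.9, 17.5 and 20.4 TPM in ΔMP and 8.06, 8.10 and 8.52 TPM in Col-0 (log2 fold change of AXR3-1 over Col-0 0.55, adjusted p = 0.000301). MYB12, a flavonol regulator, had 18.1, 15.8 and 15.2 TPM in AXR3-1 and 22.4, 20.0 and 20.9 TPM in Col-0 (log2 fold change -0.36). TT7 and MYB12 were each separated between AXR3-1 and Col-0, and MYB12 was lost without AXR3-1 C or Col-0 A (adjusted p at most 0.115). GI was the 1 of 22 clock genes that fell (-0.26, list median -0.07), and PIP1;5 the 1 of 21 water channels (-0.21, median -0.07). CYP71A12, high in AXR3-1 C alone among the mock libraries, was the 1 of 17 defense genes that rose (median 0.00). GI and PIP1;5 were lost when AXR3-1 A, AXR3-1 C or Col-0 A was left out, among others (adjusted p at most 0.255 and 0.277).

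The tissue markers did not set the lines apart at the level of single genes, apart from a few. Of 22 cell division genes 1 rose, the B-type cyclin CYCB2;3, with 27.2, 27.9 and 28.7 TPM in AXR3-1 and 22.5, 20.4 and 21.6 TPM in Col-0 (log2 fold change 0.41, adjusted p = 0.00125). It held with any 1 mock library left out. Of the 22 values 19 were positive (median 0.11), and the summed level was 619 to 686 TPM in AXR3-1, 556 to 610 TPM in ΔMP and 555 to 600 TPM in Col-0. Of 22 root hair genes 1 fell, the cell wall extensin LRX2 (-0.37, list median 0.02, summed level 606 to 708 TPM in AXR3-1 and 597 to 678 TPM in Col-0). Of 18 cell wall loosening genes 1 rose, the xyloglucan transglucosylase XTH21 (0.26, list median -0.03). LRX2 was lost without AXR3-1 A or C or Col-0 A or B (adjusted p at most 0.274) and XTH21 without AXR3-1 A or B or Col-0 C (at most 0.0533).

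By edgeR no gene passed the adjusted p in the lists of meristem and stem cell niche (12 tested, median 0.02), root cap (8, median -0.14), endodermis (11, median -0.06), stele (15, median -0.10) and green tissue (12, median 0.12). At an unadjusted p under 0.05 there were 1, 4, 2, 2 and 3 genes, and DESeq2 passed none. The summed endodermis level was 1224 to 1414 TPM in AXR3-1 and 1342 to 1359 TPM in Col-0, and that of the green tissue genes 116 to 119 TPM in AXR3-1, 152 to 163 TPM in ΔMP and 99.1 to 123 TPM in Col-0. The root cap genes summed to 193 to 213.74 TPM in AXR3-1, 218 to 232 TPM in ΔMP and 213.80 to 223 TPM in Col-0. The meristem genes summed to 206 to 220 TPM in AXR3-1 and 198 to 234 TPM in Col-0, and the stele genes to 427 to 447.7 TPM in AXR3-1 and 447.2 to 491 TPM in Col-0. The summed levels of the cell division and root cap lists were therefore apart between AXR3-1 and Col-0, with the root cap narrowly so, and those of the root hair, meristem, endodermis, stele and green tissue lists overlapped. The part of tissue composition in the iron, triterpene and phosphate differences was not tested.

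None passed by edgeR either among 15 ethylene genes (median -0.03), 8 cytokinin type-A ARR genes (median -0.15), 16 genes of water deficit, cold and ABA (median -0.13) and 15 housekeeping genes (median -0.04). Here 3, 3, 6 and 0 genes had an unadjusted p under 0.05, and DESeq2 passed 1 ethylene gene, higher in AXR3-1, and none of the other lists.

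A set of smaller differences held at all 3 pairs of AXR3-1 and Col-0 groups. Of the 400 genes past the adjusted p in the mock, 48 passed in the same direction after 90 and after 180 min of estradiol as well. Of these, 21 were higher and 27 lower in AXR3-1. Of all genes tested, 4.38% passed at 90 min and 14.5% at 180 min in either direction. Without AXR3-1 C, 17 of the 48 still passed in the mock, against 30 without Col-0 A, 31 without Col-0 B and 42 without AXR3-1 B. The estradiol results were kept from the full fit, so these numbers could not exceed 48. Of the 48, 18 also differed in the same direction from ΔMP mock, which shares the AXR3-1 libraries (1.05% of all genes rose and 2.07% fell there, 3.12% in all). Between ΔMP mock and Col-0 mock, which shares the Col-0 libraries, 13 differed in the same direction (1.84% of all genes rose and 1.98% fell, 3.82% in all). The examples that follow have annotated roles and were chosen after their values were seen.

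Among the genes higher at all 3 pairs were BT5 and BT2, scaffold proteins of nutrient and light responses, with log2 fold changes of 0.52, 0.48 and 0.85 for BT5 and 0.64, 0.99 and 0.41 for BT2 in mock libraries and after 90 and 180 min. TPS11, a trehalose phosphate synthase family gene, had 0.79, 0.55 and 0.48, and DIN10, a dark-inducible raffinose synthase family gene, had 0.38, 0.30 and 0.36. The related RAV-type repressors RAV1 and TEM1 had 0.52, 0.65 and 0.65, and 0.34, 0.32 and 0.47. TT7 had 0.55, 0.72 and 1.04, and 4CL3, a 4-coumarate ligase of the flavonoid branch, 0.43, 0.43 and 0.55. All of these moved by less than 2-fold in the mock.

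Among the genes lower at all 3 pairs, NIC3, a nicotinamidase, was the most even. It had 81.5, 78.9 and 80.4 TPM in AXR3-1 mock, against 113, 116 and 114 TPM in Col-0 mock, and log2 fold changes of -0.48, -0.43 and -0.35 over the 3 pairs. The groups were widely apart for their spread. KAI2, the karrikin receptor, had -0.27, -0.24 and -0.36, and BRL3, a brassinosteroid receptor of the vasculature, -0.31, -0.27 and -0.29. CESA6, a cellulose synthase of primary walls, had -0.23, -0.22 and -0.16. AUF1, an F-box gene linked to auxin transport and cytokinin, had -0.33 in the mock and -0.89 and -0.93 in the estradiol libraries.

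Most of the 400 did not pass the test again. At 90 min 102 passed in the same direction and 4 in the opposite one, and 82 of the 101 rises and 236 of the 299 falls kept their sign. At 180 min 91 passed in the same direction and 91 in the opposite one, the sign was kept by 69 of the rises and 142 of the falls, and 79 of the 299 genes that fell in the mock were then higher in AXR3-1. For the 101 genes that rose, the median log2 fold change was 0.48 in the mock, by which they were chosen, and 0.21 at 90 min and 0.16 at 180 min. For the 299 that fell it was -0.34 in mock libraries, and -0.13 and 0.02 after 90 and 180 min.

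The called genes lay on all 5 chromosomes, with 1, 3, 2, 3 and 8 on chromosomes 1 to 5, where 5118, 2928, 3839, 2966 and 4531 genes were tested. Chromosome 5 thus held the most. No pair of called genes lay within 5 neighbouring tested genes. Within 10 neighbours there was 1 pair, AT4G21870 and AT4G21903 on chromosome 4, which changed in opposite directions. The share of genes past the adjusted p was between 1.844% and 2.293% on each of the 5 chromosomes. Of these 400 genes (2.05% of all tested), 83 lay in 35 runs by the same rule of 5 neighbouring tested genes. The longest run held 6 genes on chromosome 5, from RBOHD to THAS1, all of which fell. Whether so many runs would be found by chance was not tested.

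By the number of called genes, the difference of AXR3-1 mock from Col-0 mock was below the other comparisons between lines that were made here. Between AXR3-1 and ΔMP in the mock, which shares the AXR3-1 libraries, 25 genes were called higher and 37 lower (0.128% and 0.189%, 0.317% in all). Between ΔMP and Col-0 in the mock, which shares the Col-0 libraries, the numbers were 34 and 33 (0.174% and 0.169%, 0.343% in all). AXR3-1 against Col-0 gave 42 and 53 after 90 min of estradiol (0.215% and 0.271%, 0.486% in all) and 256 and 246 after 180 min (1.31% and 1.26%, 2.57% in all), against 8 and 9 in the mock.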

How the data were processed

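RNA from root tips was sequenced, per the labels after preparation with a KAPA HyperPrep kit, and per the paper's methods after polyA enrichment. The authors quantified reads with Salmon 1.3.0 against TAIR10 coding sequences, which hold no UTRs, and corrected for positional, sequence and GC bias. The submitters' processing notes name Trimmomatic for trimming, whereas the paper's methods name other tools. The deposited estimated counts and the deposited TPM are per transcript and were summed per locus here. The estimated counts carry no depth correction and were rounded. TPM are scaled to a fixed total in each library.

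Genes were tested with edgeR 4.0.16 (quasi-likelihood F test, TMM, filterByExpr, prior count 0.125) in R 4.3.3, in 1 fit of all 27 libraries with a mean per group and 18 residual degrees of freedom. P-values were Benjamini-Hochberg adjusted over 19530 genes. The alternatives were DESeq2 1.42.0, limma 3.58.1 on log2(TPM + 0.5) and log2(TPM + 1), library totals, other filters, an offset for effective length, fits of 6 or 9 libraries, the library letter as a block, and each mock library left out. The edgeR script was tested on simulated data. Tables were handled with pandas 2.3.3 in Python 3.11.15. Names and coordinates come from RefSeq TAIR10.1, which has an entry for 26645 of 27313 loci.

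The genes named were IAA17, ARF5, members of 33 lists, genes at no more than 3 counts over 1 line and at least 100 over the other, and called genes with at least 2 TPM in the higher line and no overlap between the lines, up to 15 each way. The rule allowed runs of neighbouring called genes as well. Other named genes were chosen after their values were seen. The lists (Aux/IAA repressors, auxin conjugation and oxidation, synthesis, transport, receptors and response factors, LBD genes and MP targets, GA2OX, GA synthesis, GA signaling, root hair, cell wall loosening, ethylene, type-A ARR, cell division, meristem, root cap, endodermis, stele, green tissue, touch, low oxygen, clock, nitrate, phosphate, iron, sulfate, defense, heat shock, water deficit, water channels, triterpenes, flavonoids, housekeeping) held 573 loci, and 19 names were not matched. The comparison and the lists were chosen with earlier results of these data known.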

Additional observations from a re-analysis of the deposited data

Results flagged for a closer look

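The difference between AXR3-1 and Col-0 changed between the mock and the estradiol libraries by edgeR's test of the interaction (adjusted p at most 0.05) in 3 of the 17 called genes at 90 min and 7 at 180 min, and in 1 and 9 of the 48 genes that passed at all 3 pairs. The genes were picked by their mock values and the interaction uses the same mock libraries, so a shift towards 0 is partly built in. Values are the log2 line difference under estradiol minus that in the mock.

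The changes with the opposite sign to the mock difference were largest for AT5G20670, at 2.34 after 90 min and 2.60 after 180 min. AT5G47980, the thalianol cluster gene, had 1.94 at 180 min, and AT5G38820, an amino acid transporter family gene, had 1.84. For AT4G21903 the values were 0.90 at 90 min and 1.16 at 180 min, and for CYP710A4 1.12 at 90 min. AT4G21870 had -1.95, CRK4 -1.72 and ATS3 -1.22, all at 180 min.

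In several of the 48 genes that passed at all 3 pairs the mock difference grew instead. These genes were also picked by their estradiol values, which the interaction uses. Growth is therefore partly built in, and a change of sign could not occur among them. AUF1 had -0.56 at 90 min and -0.60 at 180 min, LZF1 -0.29 and TT7 0.49 at 180 min. Likewise, among the other genes that passed at all 3 pairs, the values at 180 min were -0.81 for UCN, -0.66 for AT1G78070, 0.43 for NET4B, -0.44 for AT3G13650, 0.90 for AT3G62570 and -0.32 for AT4G33120. What distinguishes the estradiol libraries (inducer, transgene and, for 180 min, time) cannot be told apart here.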

How the results depend on the processing

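Of the 17 called genes, 7 passed the adjusted p under all 17 alternatives, as did 97 of the 400. With no minimum fold the genes that rose and fell numbered 101 and 299 in AXR3-1 against Col-0 in the mock, 205 and 404 against ΔMP, 360 and 386 in ΔMP against Col-0, and under estradiol 339 and 516 (90 min) and 1592 and 1242 (180 min) in AXR3-1 against Col-0. In the mock, 4 genes were called as risen by DESeq2, which gave an adjusted p for 18013 genes, 4 by limma on log2(TPM + 0.5), and 2 by limma on log2(TPM + 1), which called 2 as fallen. With no filter on low counts 76 were called as risen at 90 min. With any 1 mock library left out, 2 to 12 genes were called as risen and 6 to 13 as fallen. Of the 48 genes that passed at all 3 pairs, 17 to 42 then still passed in the mock, an alternative chosen after seeing the data. The log2 fold change of CBP60G ran between -0.10, reversed, and 4.10 with 1 library left out. Library totals left no gene past the adjusted p among Aux/IAA (0), GA synthesis (0), root hair (0) and water channel genes (0) and 1 sulfate gene, and moved the medians to -0.0159 for Aux/IAA, -0.0239 for auxin transport, -0.0261 for receptors and response factors, 0.0022 for cell wall loosening, -0.1497 for phosphate and 0.0927 for flavonoid genes. In windows of 10 neighbouring genes 1 pair of called genes was found. The causes were not tested. The library letters did not pair the samples (correlations of same-lettered deviations 0.0353, 0.011 and -0.0543). With the letter as a replicate block, 8 genes rose and 9 fell, 16 of them shared, and AT5G38820 was lost. Levels under 1 TPM rest on few counts, and small differences of such genes may not be detectable at this depth.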

Other observations

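The groups of genes below lie outside the lists and were chosen after their values were seen, so their counts are descriptions. Of 55 tested genes encoded in the plastid, 7 rose by edgeR in AXR3-1 mock and none fell, where 0.517% of all genes tested rose and 1.53% fell, 49 had a positive log2 fold change, and the median was 0.32. They took 0.104% to 0.116% of all counts in AXR3-1, 0.1% to 0.11% in ΔMP and 0.0865% to 0.0948% in Col-0. The libraries were made from RNA enriched for polyA, per the paper. Differences in that enrichment and in the plastid transcripts themselves cannot be told apart here. One of them, ATCG00330, had 76.9, 65.8 and 62.8 TPM in AXR3-1 and 47.7, 40.6 and 43.8 TPM in Col-0 (log2 fold change 0.72). Of 36 mitochondrial genes none passed the adjusted p by edgeR, 24 were positive, and the median was 0.18. At an unadjusted p under 0.05 there were 20 plastid and 5 mitochondrial genes. DESeq2 passed 6 plastid genes, all higher, and no mitochondrial gene, and edgeR passed 3 plastid genes without AXR3-1 B, AXR3-1 C or Col-0 B, 4 without Col-0 A and 5 without AXR3-1 A or Col-0 C.

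PYK10, an abundant β-glucosidase of the ER body, had 5167, 5475 and 5099 TPM in AXR3-1 and 6417, 6081 and 6431 TPM in Col-0, with no overlap (log2 fold change -0.25), and it was lost without AXR3-1 C, Col-0 A or Col-0 C (adjusted p at most 0.106). NAI2, which is needed to form ER bodies, had 515, 508 and 492 TPM in AXR3-1 and 619, 599 and 615 TPM in Col-0 (log2 fold change -0.26). In a run of neighbouring genes on chromosome 3, the jacalin-related lectin gene JAL33 fell, with 133, 151 and 129 TPM in AXR3-1 and 192, 197 and 198 TPM in Col-0 (log2 fold change -0.50), as did PBP1, JAL31 and JAL34 with -0.28, -0.36 and -0.26, while their neighbour NSP3, a nitrile-specifier gene, rose with 0.40. On chromosome 4 the indole glucosinolate hydroxylase CYP81F4 had 578, 671 and 576 TPM in AXR3-1 and 895, 949 and 820 TPM in Col-0 (log2 fold change -0.53), and its relative CYP81F3 had -0.31.

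The scaffold gene BT1 had 56.3, 78.2 and 83.2 TPM in AXR3-1 and 41.6, 39.5 and 44.0 TPM in Col-0 (log2 fold change 0.82, adjusted p = 6.65e-05). The transcription factor gene bZIP1 had 16.8, 23.4 and 23.4 TPM in AXR3-1 and 12.5, 8.77 and 13.6 TPM in Col-0 (log2 fold change 0.88), and TPS8, a trehalose phosphate synthase family gene, had 0.72. The groups did not overlap for BT1 or bZIP1, although AXR3-1 A was the lowest AXR3-1 library for both.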
